A study of Mus musculus with 58 samples.

Results

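The diaphragm, the main muscle of breathing, was compared with the tibialis anterior, which lifts the foot, in tumour-bearing mice. All arrays that the labels give as PDX were taken: 17 of the diaphragm and 17 of the tibialis anterior, 34 of the 58 arrays of the series. The 24 sham arrays, 12 per muscle, gave the muscle difference without a tumour. The animals were adult female NSG mice, an immunodeficient strain that lacks mature B, T and natural killer cells and keeps macrophages and neutrophils. PDX mice carried a patient-derived xenograft, a piece of human pancreatic ductal adenocarcinoma from a patient with cachexia, the wasting of muscle and fat in cancer. Sham mice had the operation and no tumour. The tumours of 4 patients gave 4 cohorts, with 3, 5, 5 and 4 PDX arrays and 3 sham arrays per muscle in each. Mice were killed at severe cachexia or when a tumour reached a size limit, so the PDX arrays stand for late disease and not for a fixed time.

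A diaphragm contracts without rest throughout life and is rich in slow and fast oxidative fibres, while the mouse tibialis anterior is built almost entirely of fast fibres that run on glycolysis. Slow and fast fibres use different genes for myosin, troponin and calcium handling. The diaphragm also carries a serous covering of mesothelium and lies against the liver. In cachexia, limb muscle is known to raise ubiquitin ligases that mark muscle protein for breakdown, and collagen-producing cells and macrophages take part in the remodelling of wasting muscle.

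Every value below is a log2 expression value, or a difference between log2 values written as diaphragm minus tibialis anterior, so that 1 unit is a 2-fold difference. A difference was taken within each cohort and averaged over the 4 cohorts, and it is given with its standard error. A gene was called when its adjusted p was under 0.05 over all 23185 named genes. The change of the muscle difference is the PDX difference minus the sham difference, and it tests convergence and divergence. It is positive where the diaphragm is higher relative to the tibialis anterior in PDX than in sham.

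In the PDX arrays 12469 genes differed between the muscles, 53.8% of those tested. Of these, 4482 (19.3%) were higher in the diaphragm and 7987 (34.4%) in the tibialis anterior. The median gene lay at -0.10, so small differences lean towards the tibialis anterior, and the split moved with the centring of the arrays: with each array's median subtracted it was 3918 and 11225, and with each array centred on its typical gene 5261 and 5076. Among differences of at least 2-fold, 1120 genes were higher in the diaphragm and 266 in the tibialis anterior. The same sign was found in all 4 cohorts for 1115 and 265 of them. All 17 diaphragm arrays lay above all 17 tibialis anterior arrays for 584 genes (2.52%) and below them for 352 (1.52%).

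RNA of liver was read on part of the diaphragm arrays. The mean over 28 hepatocyte genes ran from 3.26 to 10.3 in the PDX diaphragm (median 5.34) and from 2.99 to 5.13 in the PDX tibialis anterior, with the sham diaphragm at 3.23 to 10.1. Albumin (Alb) differed by 3.23 ± 0.76 (adjusted p = 0.000383), with 27 of the 28 hepatocyte genes higher in the PDX diaphragm (background 19.3%). Results were therefore also computed without the 6 PDX and 6 sham diaphragm arrays whose hepatocyte mean lay more than 1 log2 unit above every tibialis anterior array, called the liver arrays here. Of the arrays kept, the highest in the PDX diaphragm still had a mean of 6.11, and the highest in the sham diaphragm 3.81. Only 1 PDX and 1 sham diaphragm array of cohort 1, and 1 sham diaphragm array of cohort 3, were kept. The cohorts still weighed equally, and the PDX array kept in cohort 1 was the one at 6.11. Fewer arrays and less liver RNA therefore cannot be told apart where a call was lost without the liver arrays. Without these arrays 933 and 238 genes differed by at least 2-fold, of which 827 and 225 were among the genes above. In bulk tissue, fewer cells of a type and less RNA per cell cannot be told apart.

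The 3 highest muscle differences among the genes named here by rule were of the slow-fibre genes Myh7, Myl2 and Sln. Myh7, the slow myosin heavy chain, ran from 8.30 to 9.58 in the 17 PDX diaphragm arrays (median 9.17) and from 2.77 to 4.16 in the 17 PDX tibialis anterior arrays (median 3.16). The ranges lay far apart, and the difference was 5.75 ± 0.13 (53.9-fold, adjusted p = 1.95e-35). The tibialis anterior mean was dimmer than the middle probe set of the arrays (3.78), so the difference is a lower bound. The slow troponin T gene Tnnt1 ran from 8.12 to 9.67 in the diaphragm and from 3.81 to 4.78 in the tibialis anterior, a difference of 4.63 ± 0.13 (adjusted p = 3.3e-32). Of 19 slow sarcomere and calcium-handling genes, 16 were called higher in the PDX diaphragm (background 19.3%) and 0 in the tibialis anterior, with a median of 2.91. Their median was 3.00 without the liver arrays. For 12 of the 19 every diaphragm array lay above every tibialis anterior array (2.52% over all genes).

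The promoter windows of 2 slow genes with large differences are shown to set the letters beside the differences of these genes. Each is the 250 bases before the start of transcription in the RefSeq annotation of GRCm38.p6, written 5′ to 3′ on the gene's strand. Capitals mark the E-box CANNTG, the core that myogenic factors such as MyoD bind, and the M-CAT element CATTCC, the core that TEAD factors bind, on either strand. Myh7 lies on the minus strand with its window at chr14:54994627-54994876, the more upstream of 2 annotated starts, and Tnnc1, slow and cardiac troponin C, on the plus strand at chr14:31208062-31208311.
Myh7: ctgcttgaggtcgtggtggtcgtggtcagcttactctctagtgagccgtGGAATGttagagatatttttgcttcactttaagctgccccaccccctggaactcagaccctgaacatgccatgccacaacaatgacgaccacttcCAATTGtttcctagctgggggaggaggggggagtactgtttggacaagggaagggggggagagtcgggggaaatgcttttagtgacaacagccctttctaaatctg
Tnnc1: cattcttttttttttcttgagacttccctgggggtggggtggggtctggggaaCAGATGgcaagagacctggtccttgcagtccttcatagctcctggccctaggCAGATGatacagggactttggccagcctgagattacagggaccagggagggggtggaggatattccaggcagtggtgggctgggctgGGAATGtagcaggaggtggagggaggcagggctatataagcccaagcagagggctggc
An E-box was found in 17 of the 17 slow genes with a window, and in 62.8% of the 17452 tested genes with one. It was also in every window of the pancreatic acinar list (13 of 13) and of the B, T and natural killer cell list (11 of 11), so it is not particular to slow genes. M-CAT was found in 3 of the 17, against 11.7% of all. In the Myh7 window the E-box overlaps a CCAAT sequence on the same written strand. A match describes the letters only. Tnnc1 differed by 4.06 ± 0.09 in the PDX muscles (adjusted p = 2.07e-35) and by 4.15 in the sham muscles.

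For most slow genes the change from sham was not called. It was called in 2 of 19 towards the diaphragm (background 3.66%) and in 3 towards the tibialis anterior (background 2.67%). Both counts are more than these shares would give. The change was -0.28 ± 0.20 for Tnnt1 (adjusted p = 0.49). Myh7 was dim in the tibialis anterior in both states, and in the diaphragm PDX and sham differed by -0.14 (adjusted p = 0.65). Sln encodes sarcolipin, a small inhibitor of the calcium pump, and was called. It ran from 9.95 to 11.1 in the PDX diaphragm and from 4.26 to 7.42 in the PDX tibialis anterior, against 3.28 to 5.59 in the sham tibialis anterior. The muscle difference narrowed from 6.23 to 5.22, a change of -1.01 ± 0.30 (adjusted p = 0.0304), and it was not called without the liver arrays (adjusted p = 0.126), without cohort 1, without cohort 3, with cohort as the replicate (adjusted p = 0.0718) or in 4 of the 58 fits that each left out 1 array. Ankrd2, a stretch-responsive protein of slow fibres, moved the other way. It differed by 1.45 ± 0.24 in PDX and by -0.34 ± 0.27 in sham, a change of 1.80 ± 0.36 (adjusted p = 0.000762) that was not called without cohort 1 or with cohort as the replicate (adjusted p = 0.118).

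**Figure D1:**
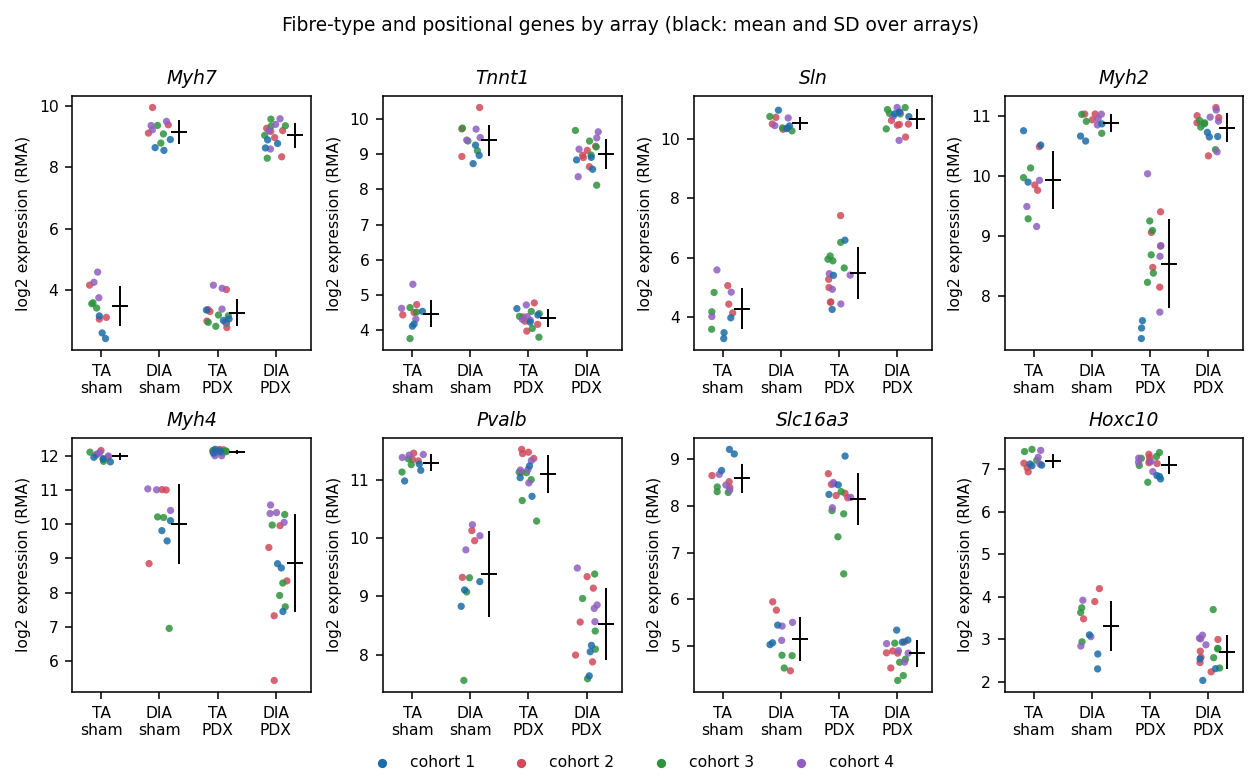
Log2 expression of 8 fibre-type and positional genes on every array of the 4 muscle and treatment groups (12 sham and 17 PDX arrays per muscle), coloured by cohort, with the mean and SD over arrays in black. Slow genes Myh7, Tnnt1 and Sln separate the muscles with and without tumour, and Myh2 is lower in the PDX tibialis anterior (median 8.67) than in the sham tibialis anterior (median 9.92).

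Fast-fibre genes ran the other way with smaller differences. Of 21 fast sarcomere and calcium-handling genes, 19 were called higher in the PDX tibialis anterior (background 34.4%) and 1 in the diaphragm. Their median was -0.59. Without the liver arrays it was -0.45, and fewer were called higher in the tibialis anterior. Myh4, the fastest limb myosin heavy chain, lay between 12.0 and 12.2 in the PDX tibialis anterior and between 5.43 and 10.6 in the PDX diaphragm. The tibialis anterior values sit near the top of the array's range, which runs to between 11.7 and 12.6, so the difference of -3.24 ± 0.29 (adjusted p = 1.7e-13) is compressed. Pvalb, the calcium buffer parvalbumin, lay at 7.59 to 9.49 in the PDX diaphragm and 10.3 to 11.5 in the PDX tibialis anterior, without overlap. Its difference widened from -1.91 to -2.61, and the change of -0.70 ± 0.22 (adjusted p = 0.0458) was not called without the liver arrays (adjusted p = 0.472) without cohort 1, 2 or 4, with cohort as the replicate, or in 42 of the 58 fits that each left out 1 array.

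Myh2, the myosin heavy chain of fast oxidative fibres, was the gene of the fast list that was higher in the diaphragm. It ran from 10.3 to 11.1 in the PDX diaphragm (median 10.9) and from 7.29 to 10.04 in the PDX tibialis anterior (median 8.67). The sham medians were 10.9 and 9.92. Between PDX and sham the diaphragm differed by -0.09 (adjusted p = 0.81) and the tibialis anterior by -1.49 (adjusted p = 4.6e-10). The muscle difference was 2.35 ± 0.14 in PDX and 0.95 ± 0.16 in sham, and the change of 1.41 ± 0.21 was called (adjusted p = 8.47e-06). Without the liver arrays it was 1.44 (adjusted p = 0.00126), and with cohort as the replicate it was not called (adjusted p = 0.0772).

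Metabolic genes divided by pathway. Of 33 genes of glycolysis, glycogen and lactate, 25 were called higher in the PDX tibialis anterior (background 34.4%) and 4 in the diaphragm (background 19.3%). Their median was -0.75, and -0.68 without the liver arrays. Slc16a3, the lactate exporter of glycolytic fibres, lay at 4.26 to 5.34 in the PDX diaphragm and at 6.54 to 9.07 in the PDX tibialis anterior. The groups did not overlap, and the difference of -3.34 ± 0.12 (adjusted p = 6.48e-28) had a sham counterpart of -3.44. Of 30 genes of fatty acid uptake, storage and oxidation, 26 were called higher in the PDX diaphragm (background 19.3%) and 2 in the tibialis anterior (background 34.4%). Their median was 0.58, and 0.59 without the liver arrays. Dgat2, which makes triglyceride, differed by 2.38 ± 0.12 (adjusted p = 2.29e-21). Of 67 genes of oxidative phosphorylation, 5 were higher in the PDX diaphragm (background 19.3%) and 15 in the tibialis anterior (background 34.4%), with a median of -0.01. Both counts are fewer than these shares would give. Without the liver arrays the median was 0.07, and more of the called members were higher in the diaphragm than in the tibialis anterior. The median of all genes was -0.09 in that fit. Between PDX and sham, 50 of the 67 were lower in the diaphragm (background 7.64%) and 33 in the tibialis anterior (background 6.1%), so both muscles had lower levels for many of these genes.

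Idh2, a mitochondrial enzyme of the citric acid cycle that supplies NADPH, converged. It lay at 10.1 to 11.1 in the PDX diaphragm and at 8.40 to 9.81 in the PDX tibialis anterior, against 8.23 to 8.66 in the sham tibialis anterior. The difference went from 2.48 in sham to 1.61 ± 0.08 in PDX, a change of -0.87 ± 0.13 (adjusted p = 8.47e-06), with the tibialis anterior higher in PDX than in sham by 0.64 (adjusted p = 1.9e-06). Echs1, an enzyme of fatty acid oxidation, narrowed from 0.75 to 0.41 ± 0.05, a change of -0.35 ± 0.08 (adjusted p = 0.00222) that was not called without cohort 1, without cohort 2 or with cohort as the replicate (adjusted p = 0.212).

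Positional genes record where along the body a muscle formed. Of 60 such genes 15 were called higher in the PDX diaphragm (background 19.3%) and 28 in the tibialis anterior (background 34.4%). The change from sham was called for 4, all towards the tibialis anterior (background 2.67%). Hoxc10, a hindlimb Hox gene, ran from 6.69 to 7.39 in the PDX tibialis anterior and from 2.03 to 3.70 in the PDX diaphragm. No array overlapped, and the difference of -4.40 ± 0.10 (adjusted p = 2.07e-35) is a lower bound, since the diaphragm level was dim. The diaphragm was dim in both states, so no change from sham is given. Gata6, a transcription factor that mesothelium also expresses, was 2.50 ± 0.10 higher in the PDX diaphragm (adjusted p = 1.62e-25), a lower bound since the tibialis anterior was dim.

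In the sham muscles 3520 genes were higher in the diaphragm (15.2%) and 5690 in the tibialis anterior (24.5%). A total of 7262 genes were called in both states with the same sign and 47 with opposite signs. Across genes, the PDX and sham differences had a Pearson r of 0.883 (0.831 without the liver arrays), over genes that are not independent. The change of the muscle difference was called for 1468 genes, 849 towards the diaphragm (3.66%) and 619 towards the tibialis anterior (2.67%). With each array's median subtracted this split was 662 and 868, without cohort 1 it was 366 and 165, without cohort 2 379 and 326, and with 1 difference per cohort as the replicate 308 and 95. Of the 1468 genes, 1199 widened, 212 narrowed and 47 turned from one muscle to the other. The remaining 10 met none of these definitions. Widened genes were higher in the PDX diaphragm in 744 cases and in the PDX tibialis anterior in 455, and 538 had no called sham difference. Of the narrowed genes, 156 had no called PDX difference. PDX groups held more arrays (17 against 12), which gives the PDX difference more power to be called. Without the liver arrays 912 genes widened, 177 narrowed and 26 turned, of which 746, 110 and 17 had the same class in the fit of all arrays.

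**Figure D2:**
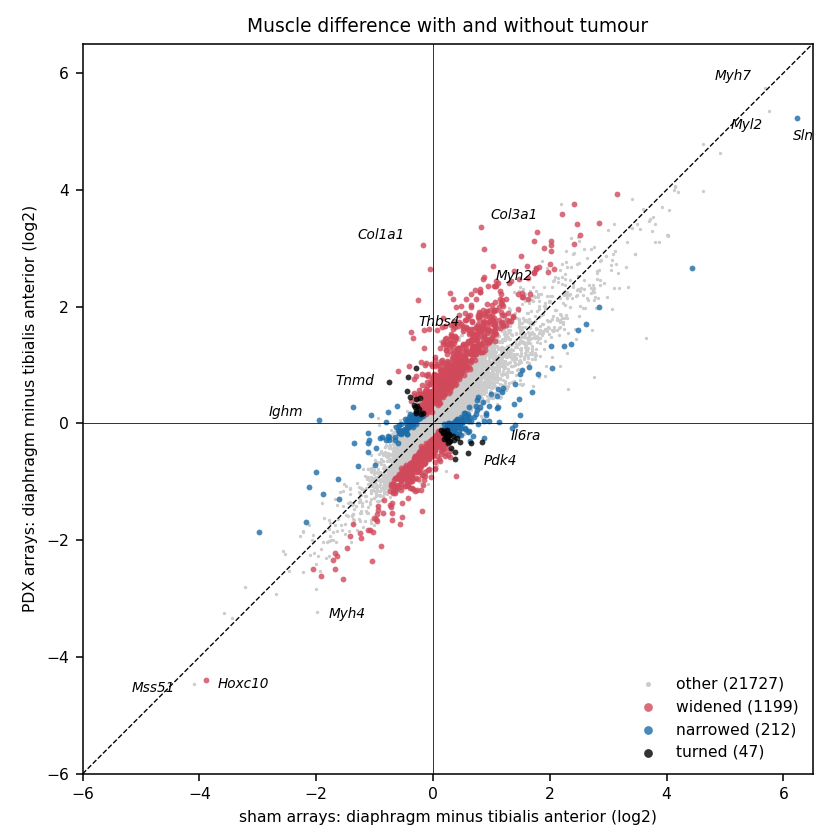
Difference between the muscles (diaphragm minus tibialis anterior, log2) in the sham arrays on the horizontal axis and in the PDX arrays on the vertical axis, for all 23185 genes, with the dashed line marking equal differences. The 1199 widened genes (red) lie farther from 0 on the vertical axis, the 212 narrowed genes (blue) closer to it, and the 47 turned genes (black) in the opposite quadrants.

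Col1a1, Col1a2 and Col3a1, genes of the fibrillar collagens, had the largest changes among the widened genes. The 39 fibrillar collagen and matrix genes had a median of 1.45 in PDX against 0.39 in sham. Of these, 36 were called higher in the PDX diaphragm (background 19.3%) and 2 in the tibialis anterior (background 34.4%). The change was called towards the diaphragm for 32 of them (background 3.66%) and towards the tibialis anterior for 0. When the liver arrays were left out, fewer changes were called, and the median change was 1.22 against 1.11 with all arrays. Between PDX and sham, 27 of the 39 were lower in the tibialis anterior (background 6.1%) and 18 were higher in the diaphragm (background 6.64%). The diaphragm rise was not seen in every cohort. In cohorts 1 and 2 the mean over the 39 genes was higher on every PDX than on every sham diaphragm array. In cohort 3 it ran from 6.48 to 6.88 in the PDX diaphragm and from 6.58 to 6.74 in the sham diaphragm. In cohort 4 these ranges were 6.40 to 7.44 and 6.81 to 7.01. Col1a1, which encodes the main chain of type I collagen, ran from 7.22 to 10.3 in the PDX diaphragm (median 8.57) and from 4.34 to 7.50 in the PDX tibialis anterior (median 5.93). The sham muscles had medians of 8.14 and 8.35. The PDX difference was 3.06 ± 0.16 (8.32-fold, adjusted p = 2.08e-21), while the sham difference of -0.17 was not called (adjusted p = 0.487). The change of 3.23 ± 0.25 (adjusted p = 7.08e-13) combines a tibialis anterior lower in PDX than in sham by 2.55 and a diaphragm higher by 0.68, and each was called. The muscle differences in PDX were 3.27, 3.06, 3.30 and 2.60 in cohorts 1 to 4. Between PDX and sham, the diaphragm differed by 0.94, 1.61, 0.05 and 0.11 in these cohorts, which is near 0 in cohorts 3 and 4. The tibialis anterior differed by -3.44, -1.39, -2.85 and -2.53.

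Col3a1, type III collagen, ran from 6.92 to 9.83 in the PDX diaphragm and from 3.96 to 6.55 in the PDX tibialis anterior, without overlap. Its difference grew from 0.82 ± 0.18 to 3.37 ± 0.15, a change of 2.54 ± 0.24 (adjusted p = 2.33e-10). Col1a2, the partner chain of type I collagen, changed by 2.69 ± 0.22 (adjusted p = 8.59e-12). Postn, periostin, a matrix protein of remodelling tissue, changed by 2.12 ± 0.23 (adjusted p = 1.66e-08), with the PDX tibialis anterior dim. Thbs4, a thrombospondin of muscle and tendon matrix, ran from 7.67 to 9.33 in the PDX diaphragm and from 5.25 to 7.87 in the PDX tibialis anterior. It went from a sham difference of -0.38 (adjusted p = 0.0896) to a PDX difference of 1.57 ± 0.16, a change of 1.95 ± 0.24 (adjusted p = 2.16e-07).

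The Col1a2 promoter is shown because this gene widened most among the collagens with a RefSeq window. The window is chr6:4505368-4505617 on the plus strand, and capitals mark the CCAAT box, which nuclear factor Y binds.
Col1a2: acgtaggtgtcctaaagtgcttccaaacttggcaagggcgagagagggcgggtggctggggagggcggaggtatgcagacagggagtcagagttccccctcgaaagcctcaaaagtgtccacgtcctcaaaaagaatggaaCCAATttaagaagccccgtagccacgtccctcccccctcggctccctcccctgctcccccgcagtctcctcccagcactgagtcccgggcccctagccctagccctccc
The CCAAT box was found in 5 of the 23 matrix genes with a window and in 36.0% of all tested genes with a window, on either strand.

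Genes of fibro-adipogenic progenitors and fibroblasts, the cells that make most muscle collagen, had 20 of 21 higher in the PDX diaphragm (background 19.3%). The change towards it was called for 15 of 21 (background 3.66%), with a median change of 0.90, and 1.02 without the liver arrays. Lum, lumican, which orders collagen fibrils, and Pi16, a marker of stromal progenitors, changed by 1.61 ± 0.22 (adjusted p = 1.71e-06) and 1.63 ± 0.18 (adjusted p = 1.51e-08). Matrix proteases and inhibitors had a called change towards the diaphragm for 12 of 24 (background 3.66%). Mmp2, a gelatinase, had a change of 1.53 ± 0.20 (adjusted p = 5.41e-07). Timp1, a metalloproteinase inhibitor, was dim in all groups but the PDX diaphragm, which was 1.47 above the sham diaphragm, a lower bound (adjusted p = 2e-05). Of 18 tendon genes 9 changed towards the diaphragm, and of 18 basement membrane genes 6 did (background 3.66% for both). The changes of the basement membrane genes Col4a1, Col4a2, Lama4 and Lamb1 were not called without cohort 1. With cohort as the replicate they were not called either (adjusted p = 0.122, 0.097, 0.113 and 0.102). The matrix and fibroblast lists share genes and are not independent of each other. The mean over the 39 matrix genes ran from 6.40 to 7.75 in the PDX diaphragm and from 4.86 to 6.10 in the PDX tibialis anterior. It ran from 6.40 to 7.01 and from 5.83 to 6.69 in the sham muscles.

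Macrophage genes diverged as well. Of 29 macrophage and monocyte genes, 28 were higher in the PDX diaphragm (background 19.3%), with a median of 1.63 against 0.73 in sham. The change was called for 17 of 29 towards the diaphragm (background 3.66%), with a median change of 0.76, and 0.83 without the liver arrays. Between PDX and sham, 22 of the 29 were higher in the diaphragm (background 6.64%), and 3 were lower in the tibialis anterior (background 6.1%). Mrc1, the mannose receptor of tissue macrophages, ran from 7.17 to 8.84 in the PDX diaphragm and from 4.32 to 6.21 in the PDX tibialis anterior. The groups did not overlap, and the difference was 2.25 ± 0.12 (adjusted p = 1.52e-20) against 0.81 in sham, a change of 1.44 ± 0.19 (adjusted p = 9.03e-07). In PDX against sham, Mrc1 was 1.18 higher in the diaphragm (adjusted p = 1.8e-08) and not called in the tibialis anterior (-0.27, adjusted p = 0.23). Lyve1, a receptor of resident macrophages and lymphatic vessels, changed by 1.10 ± 0.14 (adjusted p = 7.57e-07). Ccl8, a monocyte-attracting chemokine, was dim in all groups but the PDX diaphragm, which was 1.93 above the sham diaphragm, a lower bound (adjusted p = 2.9e-09).

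Of 17 complement genes, 16 were higher in the PDX diaphragm (background 19.3%), with a median of 2.18 against 1.12 in sham. The change was called for 8 towards the diaphragm (background 3.66%). Hepatocytes make many complement proteins. Without the liver arrays the medians were 2.08 in PDX and 1.04 in sham. Hepatocyte genes then still had a median difference of 0.78 in PDX and 0.12 in sham, so this fit does not remove liver RNA from the change. The part of liver RNA in the complement values was not tested. C7, which joins the membrane attack complex, ran from 6.08 to 8.67 in the PDX diaphragm and from 2.61 to 4.84 in the PDX tibialis anterior. Its difference went from 2.21 to 3.58 ± 0.17, a change of 1.37 ± 0.26 (adjusted p = 0.000443), called also without the liver arrays (1.55, adjusted p = 0.00293). Its tibialis anterior level was close to the middle probe set in both states. Interferon and antigen-presentation genes were higher in the PDX diaphragm for 27 of 28 (background 19.3%). The change was called towards the diaphragm for 3 (background 3.66%). Markers of B, T and natural killer cells were mostly dim, with 3 of 19 brighter on average than the middle probe set.

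Mesothelial genes marked the diaphragm in both states, with 20 of 22 higher in PDX (background 19.3%) and medians of 2.26 and 1.81. Msln, mesothelin, lay at 5.15 to 7.33 in the PDX diaphragm and at 2.79 to 3.48 in the PDX tibialis anterior. The tibialis anterior was dim in both states, and the PDX diaphragm was 0.90 above the sham diaphragm (adjusted p = 4.1e-08). Pkhd1l1 was 4.79 ± 0.12 higher in the PDX diaphragm (adjusted p = 6.18e-34), a lower bound since the tibialis anterior was dim. Adipocyte genes were higher in the PDX diaphragm for 13 of 17 (background 19.3%), with a PDX median of 0.66 and a sham median of 0.89. The change was called towards the tibialis anterior for 1 of 17 (background 2.67%). The median change was -0.26, and -0.54 without the liver arrays. Adiponectin (Adipoq) differed by 2.16 ± 0.24 in PDX and 2.77 ± 0.28 in sham, both lower bounds since the tibialis anterior was dim. The PDX diaphragm was lower than the sham diaphragm, by -0.83 (adjusted p = 0.026).

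**Figure D3:**
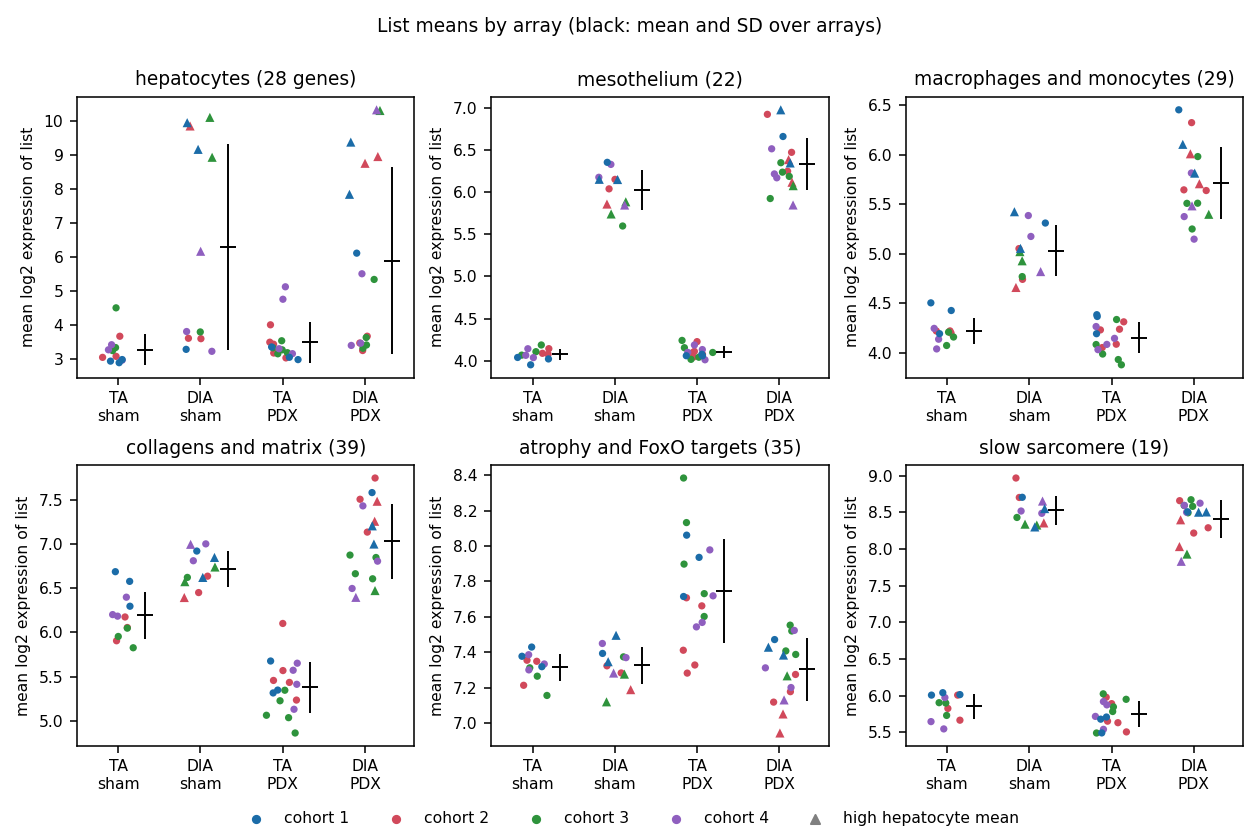
Mean log2 expression of 6 gene lists on every array in the 4 muscle and treatment groups, coloured by cohort, with the mean and SD over arrays in black and triangles for the 12 diaphragm arrays with a high hepatocyte mean. The hepatocyte mean spans 3.26 to 10.3 in the PDX diaphragm, and the matrix mean (6.40 to 7.75 against 4.86 to 6.10) separates the PDX muscles.

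Atrophy genes stood higher in the tibialis anterior of the tumour-bearing mice. The 35 atrophy and FoxO target genes had a median of -0.36 in PDX against -0.08 in sham. Of these, 24 were called higher in the PDX tibialis anterior (background 34.4%) and 2 in the diaphragm (background 19.3%). The change was called towards the tibialis anterior for 14 (background 2.67%) and towards the diaphragm for 0. With the liver arrays left out, fewer changes were called, and the median change was -0.36 against -0.35 with all arrays. Between PDX and sham, 24 of the 35 were higher in the tibialis anterior (background 6.33%) and 2 in the diaphragm (background 6.64%). Fbxo32, the ubiquitin ligase atrogin, ran from 9.14 to 10.8 in the PDX tibialis anterior (median 10.1) and from 7.99 to 9.57 in the PDX diaphragm (median 9.05). The sham medians were 9.35 and 9.15, and the ranges of the PDX groups overlapped. The difference was -1.14 ± 0.12 (adjusted p = 2.16e-11), and the change of -0.93 ± 0.18 was called (adjusted p = 0.000557). Without the liver arrays the change was -1.04. Between PDX and sham, Fbxo32 in the tibialis anterior differed by 0.90, 0.25, 0.86 and 0.97 in cohorts 1 to 4. In the diaphragm it differed by -0.37, -0.40, 0.02 and 0.02.

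Trim63, the ubiquitin ligase MuRF, ran from 8.54 to 11.3 in the PDX tibialis anterior and from 6.92 to 9.13 in the PDX diaphragm. Between PDX and sham, its tibialis anterior level differed by 1.11, 0.23, 1.56 and 0.76 in cohorts 1 to 4. Its diaphragm level differed by -0.06, -0.32, 0.60 and 0.09. The difference was -1.37 ± 0.15 in PDX and -0.53 ± 0.18 in sham, a change of -0.84 ± 0.24 (adjusted p = 0.0213) that was not called without the liver arrays (-0.77, adjusted p = 0.0939), nor without any of the 4 cohorts in turn. Its promoter is shown because it holds a forkhead site beside a glucocorticoid receptor half-site, elements for the factors known to induce it. The window is chr4:134314870-134315119 on the plus strand, and capitals mark the forkhead core TGTTTAC and the half-site AGAACA on either strand, which here adjoin.
Trim63: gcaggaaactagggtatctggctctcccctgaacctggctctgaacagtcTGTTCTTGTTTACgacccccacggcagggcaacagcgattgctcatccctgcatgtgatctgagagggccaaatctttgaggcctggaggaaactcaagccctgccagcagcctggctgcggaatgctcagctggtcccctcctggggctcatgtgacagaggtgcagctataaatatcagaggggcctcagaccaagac
The forkhead core was found in 2 of the 30 atrophy genes with a window and in 2.70% of all tested genes with one. The half-site was found in 3 of the 30 and in 14.2% of all. In the PDX arrays, Asb2, an ubiquitin ligase subunit, differed by -1.86 ± 0.10 (adjusted p = 1.45e-20) and changed by -0.82 ± 0.16 (adjusted p = 0.000414), which was not called with cohort as the replicate (adjusted p = 0.0557).

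Glucocorticoid-responsive genes showed 16 of 28 higher in the PDX tibialis anterior (background 34.4%) and 4 in the diaphragm (background 19.3%). In sham the counts were 5 (background 24.5%) and 9 (background 15.2%). The change was called towards the tibialis anterior for 7 (background 2.67%). Between PDX and sham, 21 of the 28 were higher in the tibialis anterior (background 6.33%) and 13 in the diaphragm (background 6.64%). The medians were 0.64 and 0.30, with 0 genes lower in the PDX tibialis anterior and 2 in the PDX diaphragm. Many of these genes thus stood higher in both muscles. Without the liver arrays fewer PDX differences and fewer changes were called, with a median change of -0.34 against -0.35 with all arrays. Pdk4, which shuts pyruvate out of the citric acid cycle, ran from 8.74 to 10.7 in the PDX diaphragm and from 8.34 to 11.7 in the PDX tibialis anterior. It turned from 0.59 ± 0.20 in sham (adjusted p = 0.018) to -0.51 ± 0.18 in PDX (adjusted p = 0.013), a change of -1.10 ± 0.27 (adjusted p = 0.00667) that was not called without cohort 1. Klf15, a glucocorticoid-induced factor, turned from 0.46 to -0.32, a change of -0.79 ± 0.15 (adjusted p = 0.00052) that was not called with cohort as the replicate (adjusted p = 0.0597). Its sham difference was not called without the liver arrays, and its PDX difference was not called without cohort 1 or with cohort as the replicate (adjusted p = 0.0727). The sham difference of Pdk4 was not called without the liver arrays, and its PDX difference not without cohort 1. The lowest tibialis anterior value of Pdk4 was on an array of cohort 2.

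**Figure D4:**
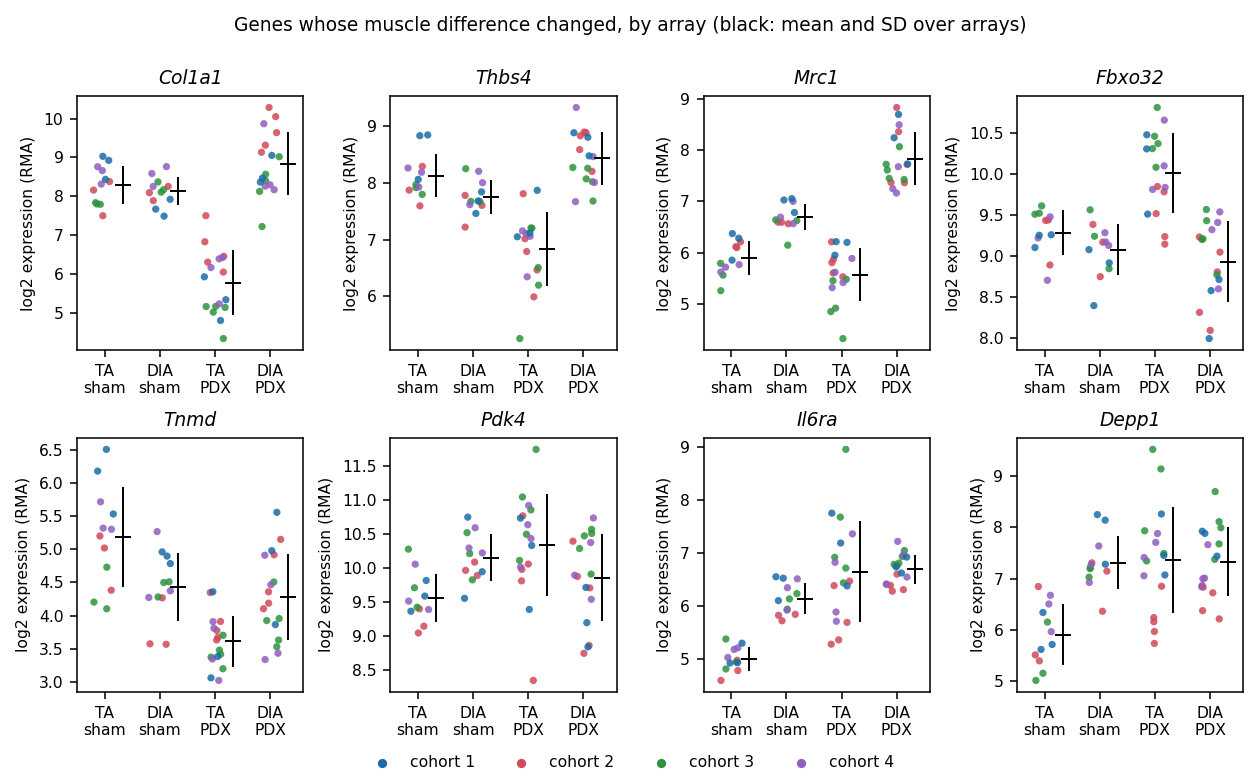
Log2 expression of 8 genes whose muscle difference changed, on every array of the 4 muscle and treatment groups, coloured by cohort, with the mean and SD over arrays in black. Col1a1 and Thbs4 are lower in the PDX than in the sham tibialis anterior, and Mrc1 is highest in the PDX diaphragm. On average over the cohorts, Il6ra and Depp1 reach the diaphragm level in the PDX tibialis anterior.

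Depp1 and Il6ra converged on average over the cohorts, with a higher tibialis anterior in PDX. Depp1, a FoxO-induced gene, ran from 5.02 to 6.85 in the sham tibialis anterior and from 5.74 to 9.52 in the PDX tibialis anterior, while the diaphragm medians were 7.25 and 7.38. The difference of 1.40 ± 0.21 in sham was -0.03 ± 0.18 in PDX (adjusted p = 0.882), a change of -1.44 ± 0.27 (adjusted p = 0.000345). Between PDX and sham, the tibialis anterior differed by 1.70, 0.27, 2.84 and 1.13 in cohorts 1 to 4. The diaphragm differed by -0.14, -0.34, 0.82 and -0.15. Il6ra, the receptor of interleukin 6, ran from 5.28 to 8.95 in the PDX tibialis anterior and from 6.28 to 7.21 in the PDX diaphragm. Its difference of 1.13 ± 0.19 in sham was 0.02 ± 0.16 in PDX (adjusted p = 0.921), a change of -1.11 ± 0.25 (adjusted p = 0.0025) that was not called without cohort 1. The cohorts varied around this average. In cohort 2, Il6ra ran from 5.28 to 6.47 in the PDX tibialis anterior and from 6.28 to 6.60 in the PDX diaphragm. In cohort 3 these ranges were 6.43 to 8.95 and 6.76 to 7.04.

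Ighm and Cxcl14 also narrowed, Cxcl14 with a higher diaphragm in PDX. Ighm was lower in PDX in both muscles, by -3.08 in the tibialis anterior (adjusted p = 7.9e-12) and by -1.08 in the diaphragm (adjusted p = 0.0025). Ighm, the immunoglobulin mu heavy chain, ran from 7.62 to 9.22 in the sham tibialis anterior and from 4.64 to 7.45 in the sham diaphragm, while the PDX ranges were 3.90 to 8.76 and 4.29 to 6.75. A sham difference of -1.95 ± 0.28 became 0.05 ± 0.24 (adjusted p = 0.864), with a change of 2.01 ± 0.37 (adjusted p = 0.000238). Between PDX and sham, the tibialis anterior differed by -3.16, -1.41, -4.26 and -3.51 in cohorts 1 to 4. The PDX tibialis anterior ran from 4.43 to 8.76 in cohort 2 and from 3.90 to 4.46 in cohort 3. Cd79a, which marks B cells, was dim in every group, with means of 2.23 to 2.58. Cxcl14, a chemokine of stromal cells, ran from 6.08 to 7.22 in the sham diaphragm and from 7.06 to 9.76 in the PDX diaphragm. Its muscle difference went from -1.37 to 0.27 ± 0.17 (adjusted p = 0.154), a change of 1.65 ± 0.25 (adjusted p = 1.36e-05). Without the liver arrays its PDX difference of 0.47 was called (adjusted p = 0.0281). Tecrl, a membrane enzyme of calcium handling in heart, was dim in the tibialis anterior in both states, so no change of its muscle difference is given. In the diaphragm it was lower in PDX than in sham, by -1.84 (adjusted p = 1.5e-10).

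Among the turned genes Tnmd, tenomodulin, a membrane protein of tendon cells, changed most. It lay at 3.34 to 5.56 in the PDX diaphragm and 3.02 to 4.36 in the PDX tibialis anterior, and at 4.10 to 6.51 in the sham tibialis anterior. The difference turned from -0.75 ± 0.18 to 0.72 ± 0.15, a change of 1.46 ± 0.24 (adjusted p = 3.44e-05), with the PDX tibialis anterior dim. Col6a3, a chain of type VI collagen, turned likewise from -0.30 to 0.95 ± 0.10, a change of 1.25 ± 0.16 (adjusted p = 3.31e-07), but its sham difference was not called without the liver arrays.

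**Figure D5:**
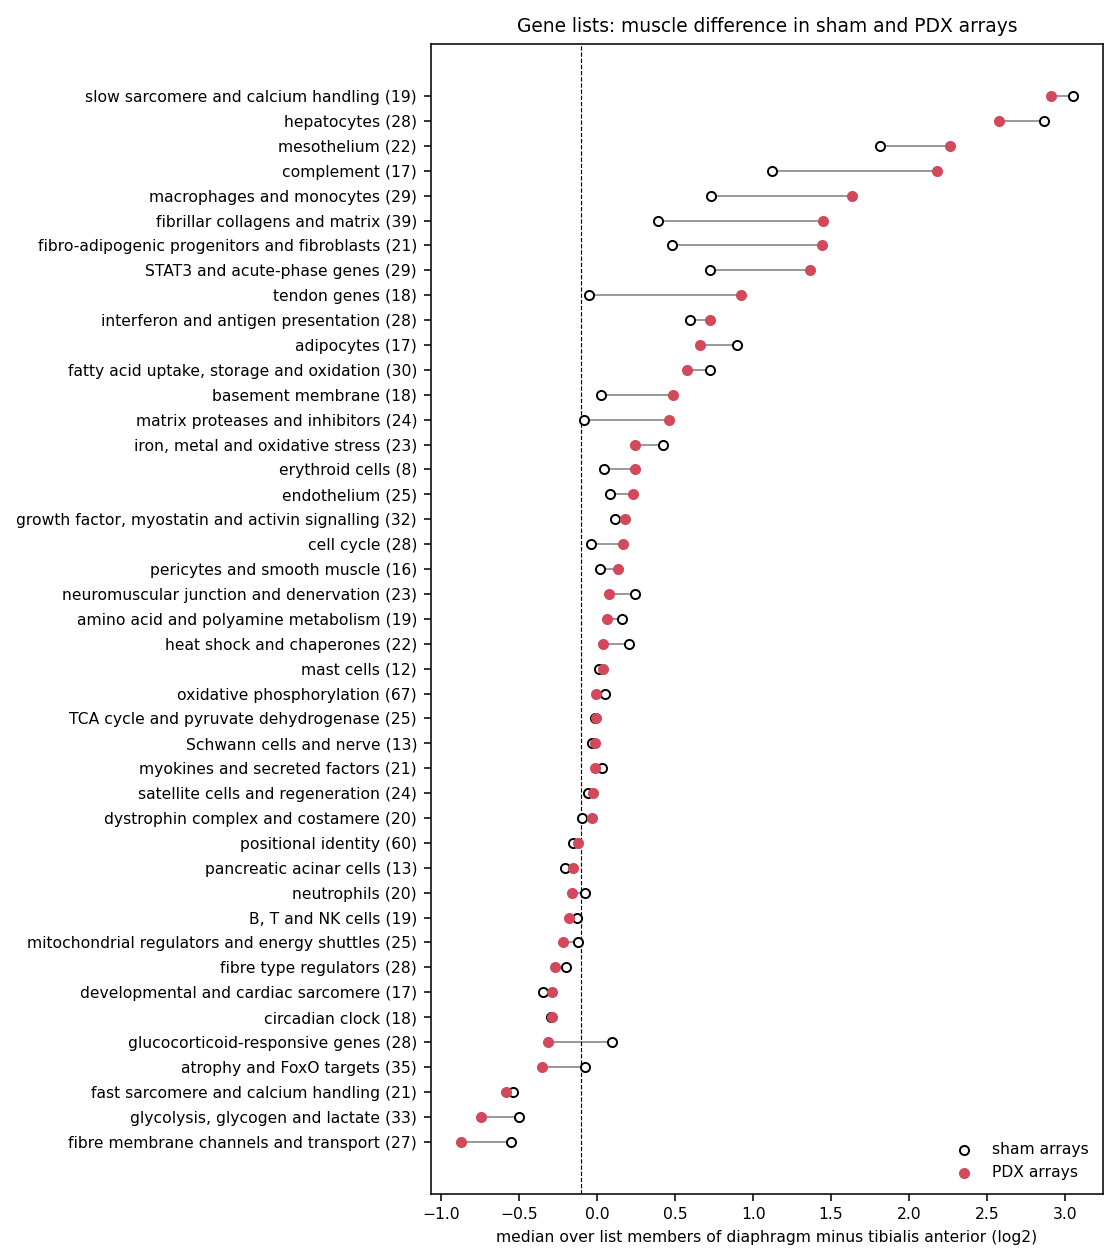
Median over the members of each gene list of the difference diaphragm minus tibialis anterior (log2) in the sham arrays (open) and in the PDX arrays (red), with the number of members in brackets and a dashed line at the median of all genes in PDX. The matrix list moves from 0.39 to 1.45 and the macrophage list from 0.73 to 1.63, while the slow sarcomere list is at 3.05 and 2.91.

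The PDX muscle difference depended on the cohort for 13 genes (0.0561%; 2566 at an unadjusted p under 0.05). It was 0 (2405 unadjusted) without array 4 of the cohort 2 PDX tibialis anterior, and 97 without array 3 of the cohort 3 PDX tibialis anterior. Ostn, osteocrin, a hormone released by muscle, differed by -1.40, -3.59, -0.82 and -1.60 in cohorts 1 to 4 (adjusted p = 0.044 in the F test). It narrowed over all cohorts, from -2.98 ± 0.23 to -1.85 ± 0.20, a change of 1.13 ± 0.31 (adjusted p = 0.0166) that was not called without the liver arrays (adjusted p = 0.115) without cohort 1, 3 or 4, or with cohort as the replicate. Pappa, a protease that frees insulin-like growth factors, differed by 1.19, 1.76, 0.02 and 0.88 (adjusted p = 0.0345).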

How the data were processed

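RNA of both muscles was labelled with biotin and read on Affymetrix arrays, per the labels. The authors deposited a log2 table of 58 arrays and 25206 probe sets. RMA, affy 1.36.1 and R 2.15.1 are named in the submitters' processing notes. How probe sets were defined, and whether the 4 cohorts were normalized as 1 set, is not stated in these labels and notes. The 23185 probe sets with a gene symbol were analysed, 1 per gene, and 2021 without one were left out. Array medians lay between 3.70 and 3.86, and the number of arrays limits precision.

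In R 4.3.3 with limma 3.58.1, 16 group means (muscle, treatment, cohort) were fitted to all 58 arrays. The contrasts were the PDX difference, the sham difference and their difference, with the cohorts weighted equally and an F test of cohort spread. Adjusted p-values are Benjamini-Hochberg, two-sided, over all genes. A widened gene had a called change and PDX difference and a larger absolute difference in PDX; a narrowed gene had a called change and sham difference and a smaller one; a turned gene was called in both states with opposite signs. The fits were tested on simulated data. Lists are described by counts and medians.

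The labels leave unstated whether each array is its own animal and whether numbers match mice across muscles, so p-values measure only spread among samples, which may be technical. Members and lists were chosen with earlier results of these data known. The genes named were, by rule, the 12 highest and lowest PDX differences, the 10 largest changes of each class, up to 5 and 4 members per list, 5 genes of cohort spread and a set of standard muscle genes; not all are printed. Alternatives covered the pairing, cohort, centring, filter, variance model, weights, single arrays and cohorts, and liver RNA.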

Additional observations from a re-analysis of the deposited data

Results flagged for a closer look

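Among the 24 genes whose array values are given, each was checked in the 6 PDX groups of 4 or 5 arrays, 144 combinations of gene and group, for an array far from the others. Chance alone would set an array apart in about 1 in 20 combinations, and 10 stood apart. In the PDX diaphragm of cohort 4, array 2 was highest for Col1a1 (9.87, next 8.29), Col3a1 (9.49, next 8.01) and Cxcl14 (9.12, next 8.02). In the PDX diaphragm of cohort 3, array 4 was lowest for Myh2 (10.4, next 10.8) and Idh2 (10.3, next 10.8), and it is an array with high hepatocyte genes; the part of this in the values was not tested. Sln was lowest in the PDX diaphragm of cohort 2 on array 3 (10.1, next 10.5) and highest in the PDX tibialis anterior of cohort 2 on array 1 (7.42, next 5.28). In the PDX tibialis anterior, Col1a1 was lowest in cohort 3 on array 1 (4.34, next 5.02), Ighm in cohort 3 on array 5 (3.90, next 4.34) and Thbs4 in cohort 4 on array 1 (6.35, next 7.06).

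The muscle difference depended on the tumour for 849 genes towards the diaphragm and 619 towards the tibialis anterior, by the test of the difference itself. It depended on the cohort for 13 genes by limma's F test, among them Pappa (adjusted p = 0.0345), Ndnf (adjusted p = 0.0381) and, each at an adjusted p of 0.0440, Ostn, Pik3r1, Snhg3 and Tppp2.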

How the results depend on the processing

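The PDX difference kept its direction in every alternative for the named genes that were called, except Tat, a hepatocyte enzyme, at -0.0004772 with the hepatocyte mean as a covariate. The paired fit with a replicate block gave 4481 and 7827 genes for the PDX difference (diaphragm, then tibialis anterior), 808 and 521 for the change, and 182 narrowed, 1094 widened and 46 turned; 4 of 29 pairs correlated over 0.1 and 15 samples correlated best with their own number, a hint from the data only. The block ended no single-gene call given in the text. It did end the call of the Hoxc10 change, which is not given. With 1 difference per cohort as the replicate, the change was called for 308 and 95 genes, with 44 narrowed, 346 widened and 12 turned. Array weights gave 1357 and 1333 changes, 557 narrowed, 2017 widened, 108 turned and 85 genes of cohort spread. Without cohort 1 there were 366 and 165 changes, 67 narrowed, 449 widened, 15 turned, 3736 sham genes higher in the tibialis anterior and 3 genes of cohort spread. Without cohort 2 these were 379, 326, 132, 541 and 31, with 0 genes of cohort spread in limma's F test (2073 at an unadjusted p under 0.05). Without cohort 3, 28 genes turned and 2 had cohort spread, and without cohort 4 there were 329 changes towards the tibialis anterior and 136 narrowed. Among genes above the middle level in at least 1 group, 4947 PDX and 3575 sham genes were higher in the tibialis anterior and 73 had cohort spread, over fewer genes. Without the 12 liver arrays, 2842 sham genes were higher in the tibialis anterior, 26 turned and 71 had cohort spread. With the hepatocyte covariate, 3399 sham genes were higher in the tibialis anterior and 20 turned. Centring on the typical gene, chosen after seeing the data like the covariate, gave 5076 PDX and 3743 sham genes higher in the tibialis anterior and 43 of cohort spread; subtracting array medians gave 4. At an adjusted p under 0.01, 69 genes narrowed, 598 widened and 10 turned, and at 2-fold or more 1120 and 266 genes differed in PDX. Leaving out each array moved cohort spread from 0 to 97 and no other count by over 1.5 times: the changes ranged from 710 to 932 and from 472 to 799. Other causes were not tested. Dim genes have lower-bound differences.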
